A study of Mus musculus with 44 samples.

Results

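The nuclear-encoded subunits of the mitochondrial respiratory chain and ATP synthase were examined in 44 single cells of mouse hindlimb muscle. They were taken by gene symbol: names that begin with Nduf (leaving out 7 Ndufaf rows, which are assembly factors), Sdha to Sdhd, Uqcr, Cox4 to Cox8, and Atp5. The rule found 83 genes among 12745 rows of the deposited table, with 17 in complex V, 16 in complex IV, 8 in complex III, 4 in complex II and 38 in complex I. All 83 matched by gene ID, and none stood on more than 1 row. The choice used no measured value.

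The cells came from adult C57BL/6 mice of genotype Prrx1-CreERT;Tomato, in which Cre is made under control of the limb mesenchyme gene Prrx1 and tamoxifen switches on a red fluorescent reporter. Mice received daily injections of 2 mg of tamoxifen for 3 days. Red cells were sorted from digested muscle, and single cells were picked under a microscope for Nextera XT libraries. All 44 cells were of 1 group with no untreated or unlabelled cells. No animal is named for any cell, so together they make up 1 sample, no value here has a replicate and no p-value was computed.

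The respiratory chain passes electrons from NADH (complex I) and succinate (complex II) through complex III and cytochrome c to oxygen at complex IV. Complexes I, III and IV pump protons across the inner mitochondrial membrane, and complex V, the ATP synthase, uses the returning protons to make ATP. A few subunits of complexes I, III, IV and V are encoded in mitochondrial DNA and are not analysed here. Skeletal muscle fibres are rich in mitochondria and use their own isoforms of several complex IV subunits, whereas fibroblasts of the muscle interstitium use the widespread isoforms.

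Values are log2(FPKM + 1), called log2 values below, where FPKM counts fragments per kilobase of transcript relative to library size. They had been forced to nearly the same distribution in every cell before deposit, so that each had 4022 rows at or above a log2 value of 1 (FPKM 1) and 1540 rows at or above 5 (FPKM 31). A level is therefore close to a rank within a cell, and sequencing depth is unknown. Particular libraries also shared low values: 6 blocks of 7 cells were mutually linked by rank correlation, cells 30 and 44 belonged to no block, and each cell was linked to between 2 and 9 others. A gene strong in 1 cell had a median of 0.278% of that FPKM in linked cells and 0 in unlinked ones. Of the subunit values between 1 and 5, 79.6% were not over 5 times the signal expected from linked libraries, against 2.48% of those at 5 or more, and presence was therefore read at 5. Of 6 measured fibroblast markers, between 2 and 6 reached a log2 value of 5 in a cell (median 5.5), and none of 3 endothelial and 3 leukocyte markers reached it in any cell.

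Short stretches upstream of widely held subunit genes, and of Ndufa11 and Sdhd, which fewer cells held, are shown first because they carry letters long linked to respiratory chain genes. NRF1 and GABPA (an ETS factor), both known as regulators of these genes, bind a palindrome and the letters CCGGAAG. YY1 binds letters that include AAGATGG. For YY1 the search used a longer string that begins with AAGATGG, called the YY1 letters below. The windows lie upstream of RefSeq starts on GRCm38.p6, are written 5′ to 3′ on the gene's strand, and have in capitals the palindrome of NRF1 (the first 3 windows) or the GABPA letters read on the other strand (the others).
Cox6a1, chr5:115349096-115349135, minus strand: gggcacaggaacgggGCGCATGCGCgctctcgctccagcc
Atp5k, chr5:108434425-108434464, minus strand: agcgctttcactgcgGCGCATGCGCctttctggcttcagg
Ndufa11, chr17:56717687-56717726, plus strand: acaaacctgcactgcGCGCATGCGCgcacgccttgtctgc
Cox6a1, chr5:115348959-115348989, minus strand: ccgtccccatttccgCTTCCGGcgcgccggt
Cox6b1, chr7:30626121-30626157, minus strand: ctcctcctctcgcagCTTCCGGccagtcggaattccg
Atp5h, chr11:115419936-115419972, minus strand: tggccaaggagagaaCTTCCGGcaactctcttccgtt
Uqcrh, chr4:116075071-116075095, minus strand: gaggagtatgccgcaCTTCCGGcca
Sdhd, chr9:50603874-50603910, minus strand: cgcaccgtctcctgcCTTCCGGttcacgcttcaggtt

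A RefSeq promoter window, 250 bases before to 50 after the start, was matched for 70 of the 83 genes and searched on both strands, whether or not motifs overlapped each other. The NRF1 letters, which read the same on both strands, stood in 5 of these genes (7.14%), Atp5g2, Atp5k, Cox6a1, Ndufa11 and Uqcrc1, against 2.25% of all genes of the deposited table with a promoter. The GABPA letters stood in 16 genes (22.9%), against 19.7% of table genes. The YY1 letters stood in 5 genes (7.14%), Atp5sl, Ndufa9, Ndufs4, Ndufs6 and Ndufs7, against 1.82% of table genes. These shares are for the longer YY1 string and not for AAGATGG alone. In 4 of these 5 genes the YY1 letters did not lie wholly before the start. Median GC content was 57.5% in the subunits' windows and 60.3% in those of table genes. The presence of any of the 3 motifs did not go with the level of the gene in 1 direction: the median of gene medians was a log2 value of 3.83 for 24 genes with a motif and 4.65 for 46 without in the whole window, but 4.70 for 16 genes and 4.58 for 54 in the 250 bases before the start. A match describes these letters only.

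Respiratory chain subunits were among the more widely held rows of the table. At a log2 value of 1 or more, 74 of 83 subunits were present in at least 22 of the 44 cells, against 25.4% of all rows in the table. At 5 or more, 36 of 83 were present in at least 22 cells, against 5.23% of the rows of the table. Over all cells, 45.3% of the 3652 subunit values reached 5, against 12.1% of the values of all rows, and the median of the row medians was a log2 value of 4.58 for subunits and 0.15 for all rows.

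Single cells held different subunits. A cell had between 27 subunits (cell 35) and 48 subunits (cells 36 and 44) at a log2 value of 5 or more, with a median of 37. The mean log2 value over all subunits ran between 3.92 in cell 21 and 5.37 in cell 36, with a median of 4.62 and an SD over cells of 0.363. In 38 cells at least 1 subunit of every complex reached 5. In the other 6 cells the complex without one was complex II, which has the fewest genes, 4.

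**Figure D1:**
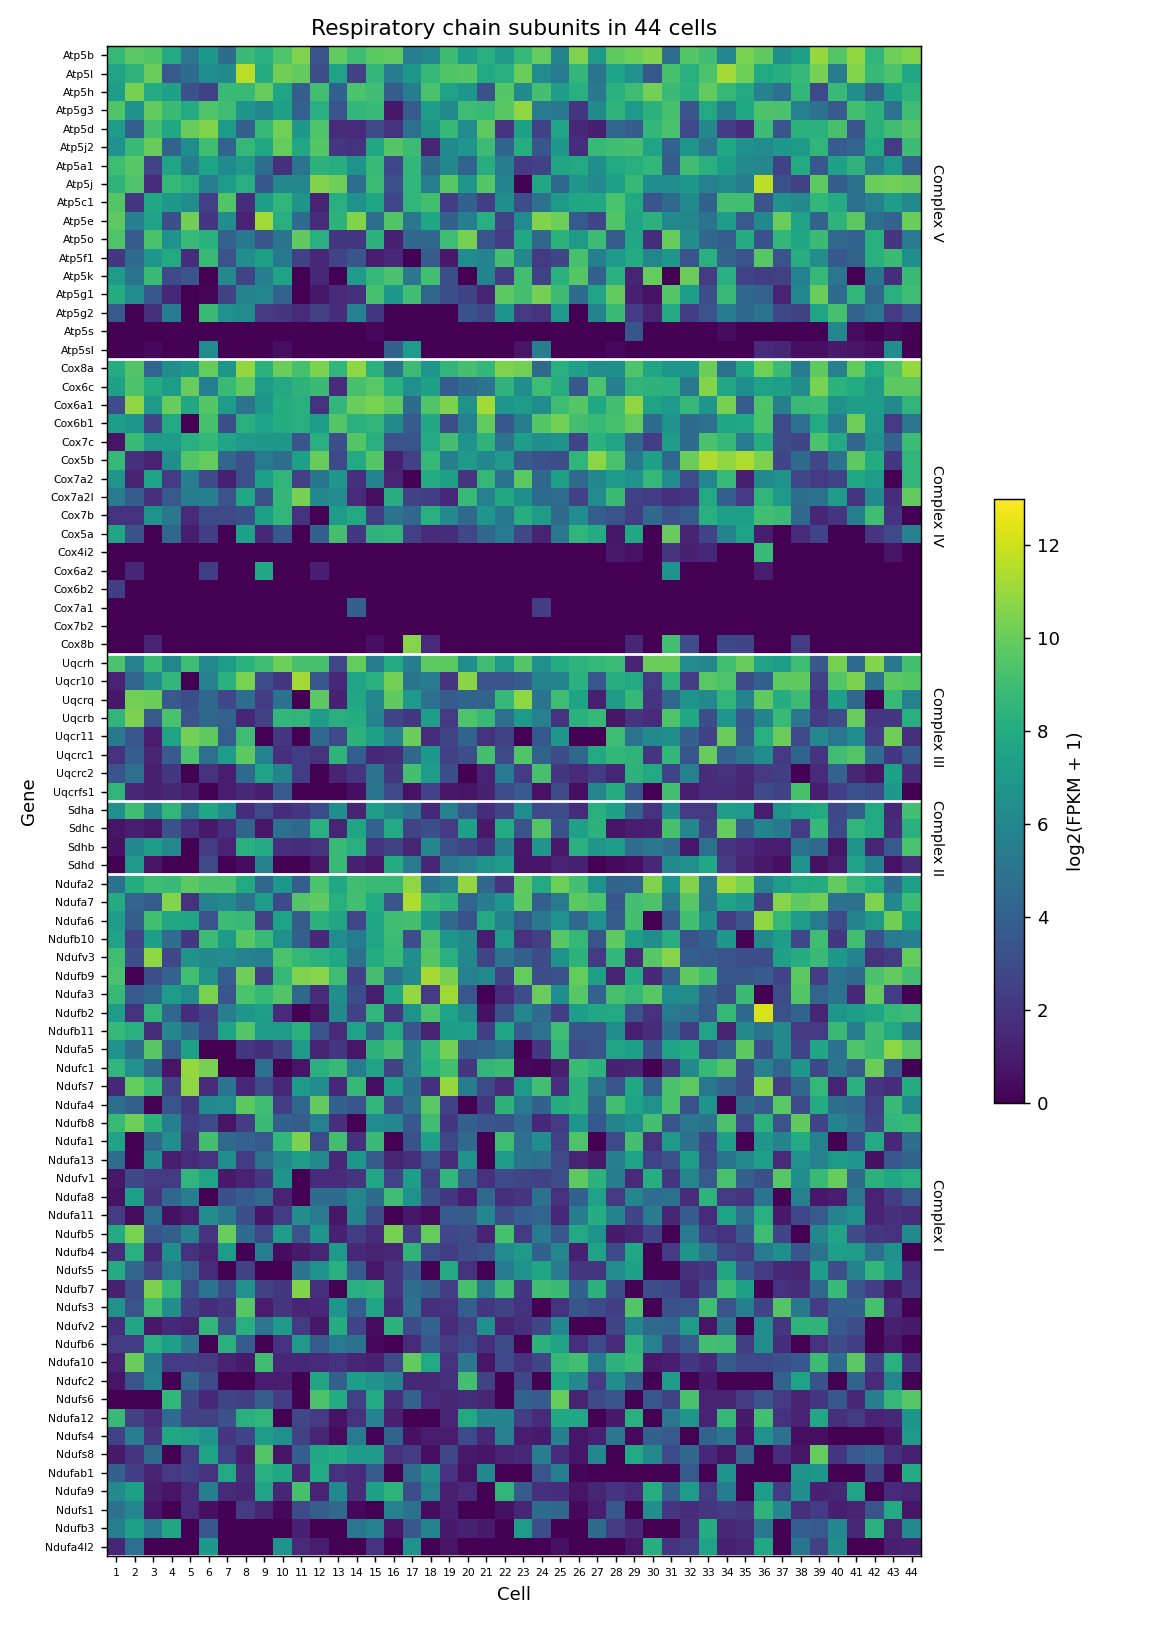
Log2(FPKM + 1) of the subunits (rows, grouped by complex and ordered by median level within it) in each of the 44 cells (columns). Rows near the top of each complex are bright in most cells, lower rows are bright in few, and 6 rows at the foot of complex IV and 2 at the foot of complex V are dark in nearly all cells.

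Complex V, the ATP synthase, had the highest cell mean of the 5 complexes when all members were counted. The mean log2 value over its members ran between 4.19 and 7.03 over cells with a median of 5.55, against medians of 3.98 for complex IV, 4.97 for complex III, 3.76 for complex II and 4.44 for complex I. Within a cell, complex V minus complex I had a median of 1.14 on the log2 scale and was above 0 in 43 of 44 cells. The median difference was 1.66 against complex II (above 0 in 36 cells) and 0.39 against complex III (above 0 in 30 cells). Within the 6 blocks of linked libraries the median of complex V minus complex I lay between 0.59 and 1.49, whereas that of complex V minus complex III fell below 0 in blocks 3 and 6.

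The place of complex IV depended on which genes were counted. With all 16 members, complex V minus complex IV had a median difference of 1.53 log2 units and was above 0 in all 44 cells. Complex IV holds 6 tissue-restricted isoforms that were at or near 0 in most cells, and complexes V and I hold Atp5s, Atp5sl and Ndufa4l2, which also were low. This set of 9 was chosen after seeing the data, and leaving out low genes raises a mean by construction. Without these 9 genes the median levels were 6.25 for complex V, 6.16 for complex IV, 4.97 for complex III, 3.76 for complex II and 4.45 for complex I. The difference of complex V and complex IV was then -0.05 log2 units and above 0 in 20 of 44 cells, so its sign turned. Complex V minus complex I was 1.74 and above 0 in all 44 cells, and complex IV minus complex I was 1.74 and above 0 in 40 cells. For the 74 genes kept, the share of values at 5 or more was 66.4% in complex V, 65.7% in complex IV, 47.2% in complex III, 39.8% in complex II and 41.3% in complex I.

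**Figure D2:**
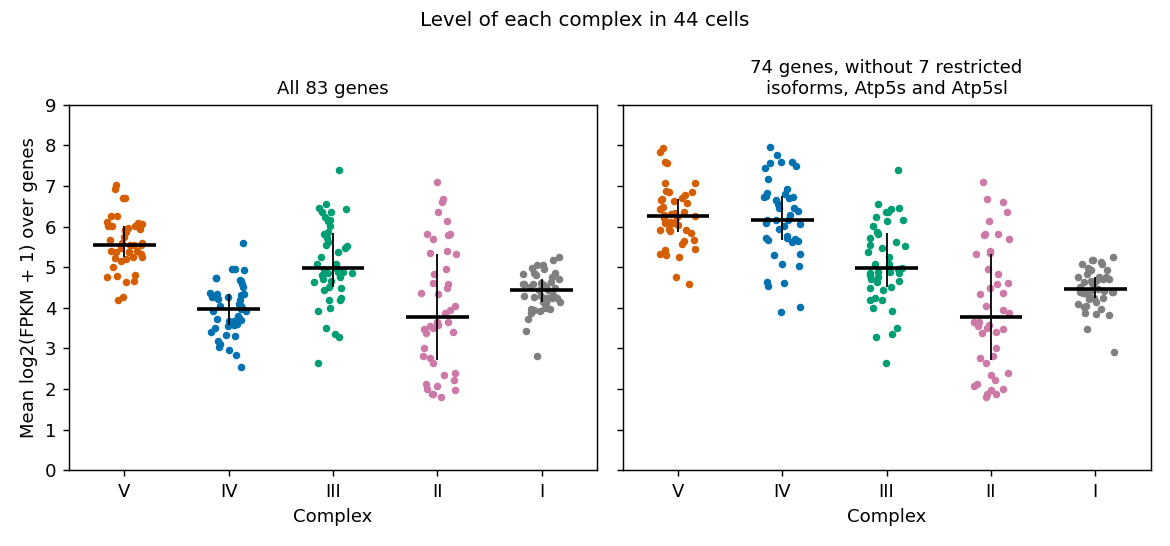
Mean log2(FPKM + 1) over the genes of each complex in each of 44 cells (points), with the median (horizontal line) and quartiles (vertical line) over cells, for all 83 genes (left) and for 74 genes without the 7 restricted isoforms, Atp5s and Atp5sl (right). Complex IV has a median of 3.98 on the left and 6.16 on the right, beside 5.55 and 6.25 for complex V.

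In complex V the rotary catalytic head, the F1 sector, was held most evenly. All 5 of its genes reached a log2 value of 5 in at least 22 cells, and 71.4% of their values did so. Atp5b, the catalytic beta subunit, ran between 3.34 and 10.94 with a median of 8.93, the highest median of the 83 genes, and reached 5 in 41 cells (93.2%, exact 95% interval 81.3 to 98.6%). Atp5a1, the alpha subunit, ran between 1.81 and 9.64 with a median of 6.83 and reached 5 in 32 cells. The medians of Atp5d (delta), Atp5c1 (gamma) and Atp5e (epsilon) lay between 6.36 and 7.01. Every cell listed all 5 genes at a log2 value of 1 or more, where most low values were within the signal of linked libraries. Over 5 times that signal, 6 cells held all 5 genes and 6 held 2. A cell held between 2 and 5 of them at 5, with all 5 at 5 in cells 1, 5, 25, 38 and 40.

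The membrane sector and peripheral stalk of complex V were held more unevenly. Of 10 genes, 8 reached a log2 value of 5 in at least 22 cells, and 63.9% of values did so. Atp5l, the g subunit of the membrane sector, ran between 2.50 and 11.65 with a median of 8.12 and reached 5 in 38 cells. Atp5h, the d subunit of the stalk, ran between 2.58 and 10.35 with a median of 7.89 and reached 5 in 35 cells. Atp5k, the e subunit, had a wider spread, with values between 0 and 10.02, a median of 5.07 and an interquartile range of 5.85. It reached 5 in 24 cells and was under 1 in 6. Atp5j and Atp5j2 reached 5 in 34 and 32 cells, and the stalk genes Atp5o and Atp5f1 in 25 and 23.

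Mice have 3 genes, Atp5g1, Atp5g2 and Atp5g3, that encode the same mature c subunit of the proton-driven ring behind different import sequences. Atp5g3 was the most widely held, with values between 0.85 and 10.83, a median of 7.78 and 35 cells at a log2 value of 5. Atp5g1 ran between 0 and 10.30 with a median of 4.58 and reached 5 in 21 cells. Atp5g2 ran between 0 and 9.23 with a median of 2.79 and reached 5 in 14 cells. Atp5g3 was the highest of the 3 in 27 cells, Atp5g1 in 16 and Atp5g2 in 1. At least 1 of the 3 reached 5 in 41 cells, and all 3 did so in 7. Atp5s and Atp5sl, which match the symbol rule but are no structural subunits, reached 5 in 1 and 4 cells.

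Most widespread nuclear subunits of complex IV, which surround a catalytic core encoded in mitochondrial DNA, were high, and 7 of 16 members reached 5 in at least 22 cells. Cox8a, a small membrane subunit, ran between 4.22 and 10.94 with a median of 8.40 and reached a log2 value of 5 in 41 cells (93.2%, exact 95% interval 81.3 to 98.6%). Cox6c ran between 1.64 and 10.59 with a median of 8.01 and reached 5 in 39 cells. Cox6a1, whose windows are printed above, ran between 1.90 and 11.20 with a median of 7.93 and reached 5 in 39 cells. All 3 were high in nearly every cell. Cox6b1, on the side facing cytochrome c, reached 5 in 32 cells with a median of 7.39, and Cox7c in 30 cells with a median of 7.07. Cox5b reached 5 in 27 cells with a median of 6.70, and its partner Cox5a in 14 cells with a median of 2.69, the lowest of the widespread subunits of this complex.

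Partners of paralogous pairs were held by different numbers of cells. Cox7a2 and its paralog Cox7a2l had medians of 5.91 and 4.74. They reached a log2 value of 5 in 25 and 21 cells, both together in 14 cells and neither in 12. Cox7a2 was the higher of the pair in 20 cells and Cox7a2l in 24, and the median difference of Cox7a2 and Cox7a2l was -0.20 log2 units with quartiles of -2.19 and 3.07. Cox7b ran between 0 and 9.06 with a median of 4.50 and reached 5 in 21 cells. Cox4i1 and Cox8c are not analysed here.

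The muscle, lung and testis isoforms of complex IV were nearly absent at a log2 value of 5. Of the 6 restricted isoforms, 3 reached 5 in any cell, and the cells that held them were 9, 17, 31 and 36. Cox4i2, an isoform of subunit 4 known from lung and from the contractile cells around vessels, lies at chr2:152754173-152765037 on GRCm38 and reached 5 in cell 36 alone, at 8.81 (2.27% of cells, exact 95% interval 0.0575 to 12.02%). Its other values above 0.1 were at most 2.02, in cells 28, 29, 31, 32, 33 and 43, all 6 of which were linked to cell 36. Cell 36 held 9 of 9 measured markers of mural cells (pericytes and vascular smooth muscle) at 5, with a summed level of 30476 FPKM, against 1.99 to 6458 FPKM in the other 43 cells. Cell 30, with 8 of 9 mural markers at 5 and the 6458 FPKM, had a Cox4i2 log2 value of 0.00079. In cell 36 the mural genes Acta2, Tagln and Rgs5 had log2 values of 13.78, 11.94 and 10.20, and the part of these markers in the Cox4i2 value was not tested.

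Isoforms of heart and skeletal muscle, Cox8b and Cox6a2, each stood out in a pair of cells. Cox8b (chr7:140898945-140900446) had log2 values of 10.62 in cell 17 and 9.11 in cell 31, and at most 3.06 elsewhere. Cox6a2 (chr7:128205435-128206387) had log2 values of 7.79 in cell 9 and 6.65 in cell 31, and at most 2.42 elsewhere. The 8 cells with a low value of Cox8b and the 4 with a low value of Cox6a2 were all linked to a cell with a high one. Among these low values, that of Cox6a2 in cell 6, 2.42, was over 5 times the signal expected from linked libraries. Of 12 measured myofibre markers, cell 31 held 8 at 5, with a summed level of 5981 FPKM, while the slow-fibre markers Tnnt1 and Tnnc1 were at 0 in it. Cells 9 and 17 held 0 of the 12 at 5, with 13.7 and 38.7 FPKM. Ckm was at 0 in both, but other markers were not: the highest were Tnni2 at 3.26 in cell 9 and Tnnt3 at 4.83 in cell 17. Cell 17 held 6 of 7 tenocyte markers, with a summed level of 16843 FPKM, and cell 9 held 2 of 7, with 760 FPKM. The high Cox8b and Cox6a2 values therefore stood in 1 cell with myofibre transcripts and in 2 cells with myofibre markers under 5. Cox8a, the widespread partner of Cox8b, also reached 5 in both cells with Cox8b, and Cox6a1 in both cells with Cox6a2. Exons of Cox6a2 overlap those of Itgad on the other strand.

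The remaining restricted isoforms stayed below a log2 value of 5. Cox7a1, the muscle and heart partner of Cox7a2, was highest in cell 14, at 3.997, and was 2.37 in cell 24. Cox6b2, known from testis, was highest in cell 1, at 2.41. These values of Cox7a1 and Cox6b2 were over 5 times the signal expected from linked libraries. Cox7b2, also known from testis, was listed at 0 or at most 0.0013. For a gene in no cell at 5, the exact 95% interval allows a share of up to 8.04% of cells, which covers counting error only.

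Ndufa4l2 differed from these isoforms in being held by 8 cells. It is a hypoxia-inducible paralog of Ndufa4, which carries a complex I name and is now placed in complex IV. Its gene lies at chr10:127514967-127517154. It reached a log2 value of 5 in cells 6, 10, 17, 30, 33, 36, 38 and 40 (18.2%, exact 95% interval 8.19 to 32.7%), with its highest value, 8.09, in cell 30. Ndufa4 reached 5 in 20 cells, and both genes did in 3. Summed mural markers ran between 2.04 and 30476 FPKM in the cells at 5 and between 1.99 and 2440 FPKM in the other cells. Cells 36 and 30, with 9 and 8 of 9 mural markers at 5, were among the 8, but cells 10 and 38 had 0 of 9. Other marker lists differed too. Cells 17 and 40, also among the 8, held 6 and 5 of 7 tenocyte markers at 5. The median tenocyte sum was 255 FPKM in the 8 cells and 87.4 FPKM in the other 36. The median fibroblast sum was 1684 and 3130 FPKM. The part of any marker list in the Ndufa4l2 values was not tested. Exons of Ndufa4l2 overlap those of Shmt2 on the other strand, and Shmt2 reached 5 in 3 of the 8 cells and in 7 of the other 36.

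**Figure D3:**
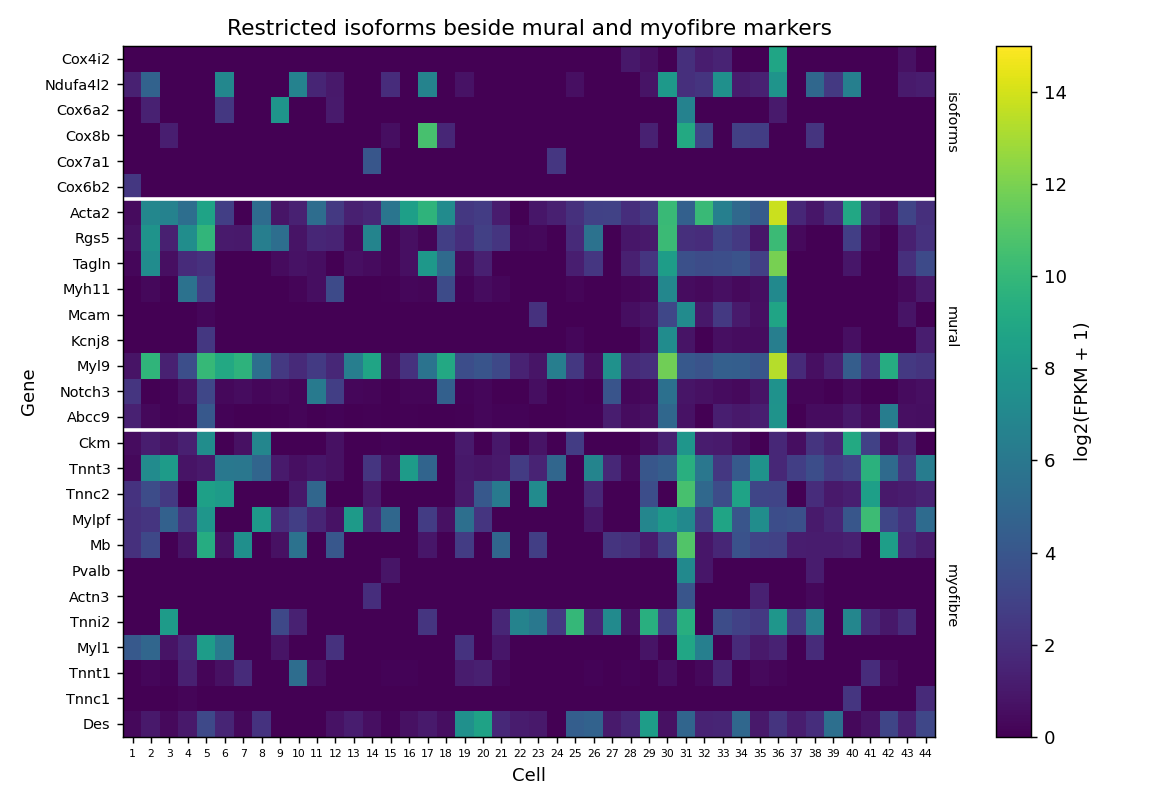
Log2(FPKM + 1) of 5 restricted isoforms of complex IV and of Ndufa4l2 (top rows) with 9 mural markers (middle rows) and 12 myofibre markers (bottom rows) in each of 44 cells (columns). Cell 36 is bright for Cox4i2, Ndufa4l2 and all mural markers, cell 31 is bright for Cox8b, Cox6a2 and 8 myofibre markers, and cells 9 and 17 hold Cox6a2 or Cox8b with no myofibre marker at 5.

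Complex III was split between small, widely held subunits and larger ones held by few cells. Uqcrh, the hinge protein that helps cytochrome c1 meet cytochrome c, ran between 1.23 and 10.59 with a median of 8.56 and reached a log2 value of 5 in 40 cells. Uqcr10 and Uqcrq, small membrane subunits, had medians of 5.81 and 5.77 and reached 5 in 26 and 24 cells. Uqcrb had a median of 5.73 and also reached 5 in 24 cells. The small Uqcr11 stood lower, with a median of 4.33 and 20 cells at 5. Uqcr10 and Uqcrb had 2 of the 5 widest interquartile ranges among subunits with a median of 5 or more, 6.10 and 5.74.

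The larger subunits of complex III had lower levels per length. Uqcrc1 and Uqcrc2, the core proteins on the matrix side, had medians of 4.21 and 2.12 and reached a log2 value of 5 in 16 and 10 cells. Uqcrfs1, the Rieske iron-sulphur protein that takes electrons from ubiquinol, ran between 0 and 9.20 with a median of 1.49 and reached 5 in 6 cells (13.6%, exact 95% interval 5.17 to 27.4%). Over the 8 genes, a cell held between 1 and 6 at 5, with 6 in cells 28, 31 and 43. Cyc1, cytochrome c1, falls outside the symbol rule, and its median log2 value was 2.00.

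Complex II, which is also an enzyme of the citric acid cycle, had the cell mean with the widest spread. Its cell mean ran between 1.80 and 7.10, with an SD over cells of 1.53, against 0.644 for complex V, 0.647 for complex IV, 1.00 for complex III and 0.473 for complex I. The mean of complex II rests on 4 genes, and a mean over fewer genes spreads more, so this is not read as a trait of the complex. Sdha, the flavoprotein that oxidises succinate, ran between 1.02 and 9.11 with a median of 5.18 and reached a log2 value of 5 in 22 cells. Sdhb, the iron-sulphur subunit, ran between 0 and 9.33 with a median of 3.45 and reached 5 in 16 cells. The membrane anchors Sdhc and Sdhd had medians of 3.65 and 1.26 and reached 5 in 17 and 15 cells.

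No cell held all 4 genes of complex II at a log2 value of 5. The genes reached it in 22, 17, 16 and 15 of 44 cells, so few cells with all 4 are to be expected from these shares alone. The counts of cells below were not tested against such an expectation and are not read as a trait of complex II. There were 9 cells with 3 genes, 14 with 2, 15 with 1 and 6 with 0, the last being cells 10, 11, 25, 29, 40 and 43. By the criterion of over 5 times the linked signal, cells 31, 41 and 44 held all 4. At a log2 value of 1, 19 cells held all 4 and 20 held 3. In Sdhd the values parted most clearly, since its highest value under 5 was 2.89 and its lowest at or above 5 was 5.09.

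In complex I the genes at a log2 value of 5 in at least 22 cells were all accessory subunits, which surround the catalytic core. The 31 genes counted as accessory by symbol include Ndufa4 and Ndufa4l2. Of these 31 genes, 11 reached a log2 value of 5 in at least 22 cells, and 42.7% of values did so. They were Ndufa2, Ndufa7, Ndufa6, Ndufb10, Ndufv3, Ndufb9, Ndufa3, Ndufb2, Ndufb11, Ndufa5 and Ndufc1. Of 7 core genes, most of which carry the flavin or iron-sulphur clusters, 0 reached 5 in at least 22 cells, and 31.5% of values reached 5. The contrast hangs on the cut, since core Ndufs7 reached 5 in 21 cells and accessory Ndufa5 and Ndufc1 in 22. A difference between core and accessory genes was not tested. Ndufa2 and Ndufa7, accessory subunits of the NADH-oxidising arm, had medians of 7.98 and 7.33 and reached 5 in 35 and 32 cells. Ndufa2 ran between 2.03 and 11.09 and Ndufa7 between 1.88 and 11.39, so that both were above 1 in all 44 cells. Ndufa6 ran between 0 and 10.85 with a median of 6.77 and reached 5 in 29 cells. The widest interquartile ranges among subunits with a median of 5 or more included Ndufa3 (5.90) and Ndufb9 (5.82), both of the membrane arm.

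Core subunits of complex I were held by between 6 and 21 cells each. Ndufs7, at the end of the chain of iron-sulphur clusters, ran between 0.53 and 10.99 with a median of 4.76 and reached a log2 value of 5 in 21 cells. Ndufv1, which binds NADH and flavin, had a median of 3.81 and reached 5 in 19 cells. Ndufs8 had a median of 2.14 and reached 5 in 11 cells. Ndufs1, the largest of the peripheral arm, ran between 0 and 8.47 with a median of 1.71 and reached 5 in 6 cells. A cell held at most 4 of the 7 core genes at 5, in 7 cells, and cells 7 and 18 held 0. Of the other genes at the foot of complex I, Ndufb3 had a median of 1.61 and reached 5 in 13 cells. Over all 38 genes the number of cells at 5 ran between 6 and 35, with a median of 16.5.

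By the arms of complex I, the share of values that reached a log2 value of 5 was 43.8% for 11 genes of the NADH-oxidising N module, 36.4% for 6 genes of the quinone-binding Q module and 41.1% for 19 measured genes of the proton-pumping P module. Exons of 29 of the 83 genes overlap another annotated gene, and Nextera XT libraries do not record strand, so reads of such partners cannot be told apart. For Ndufs1, the partner Eef1b2 reached 5 in 4 of the 6 cells with Ndufs1 at 5 and in 27 of the other 38. Processed pseudogenes are annotated for several subunits, among them Uqcrh, Atp5l, Atp5k and Atp5c1, and the sources used here do not give how reads shared with them were counted.

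Outside the restricted isoforms, shorter transcripts tended to have higher levels per length. Across the 74 genes without restricted isoforms, Atp5s and Atp5sl, Spearman's rho between the longest annotated coding transcript and the median log2 value was -0.36, as a description across genes, which are not independent replicates. It was -0.54 for 10 genes of complex IV, -0.40 for 37 of complex I and -0.04 for 15 of complex V. The 6 complex IV genes left out after seeing the data have transcripts of 360 to 733 bases and medians of 0. They go against the direction of the complex IV value, which rests on leaving them out. Over all 83 genes rho was -0.20. The 48 genes with transcripts under 1000 bases had 48.9% of values at 5 or more, and the 35 longer ones 40.3%. The core genes of complex I had a median length of 1623 bases and the accessory genes 875, and the part of length in the difference between them was not tested.

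**Figure D4:**
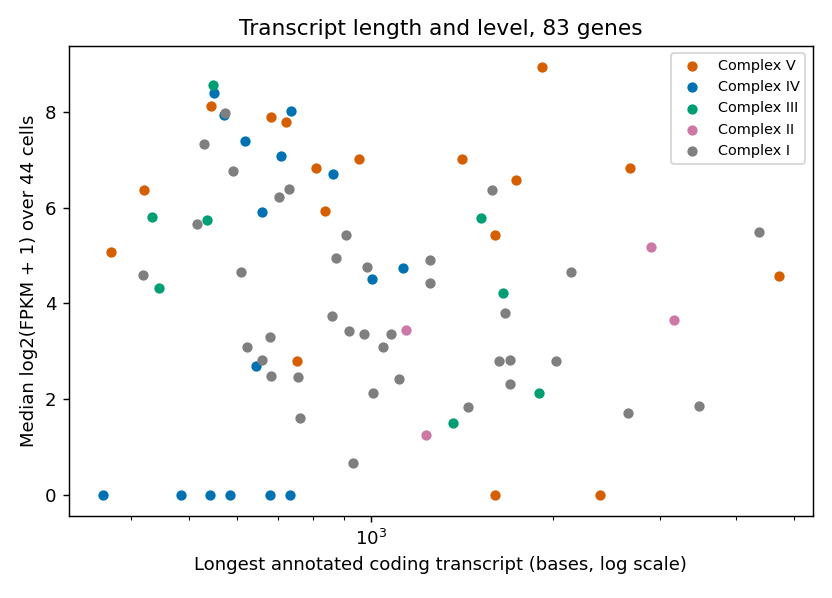
Median log2(FPKM + 1) over 44 cells (vertical axis) against the length in bases of the longest annotated coding transcript (horizontal axis, log scale) for 83 subunits, coloured by complex. Genes of complexes IV and I with short transcripts reach the highest medians of their complex, but the 6 restricted isoforms of complex IV, also short, have medians of 0. Atp5b of complex V has the highest median of all, 8.93, with a transcript of 1916 bases.

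Over cells, the correlation of subunits in a complex was near that of other pairs of rows. With values under 5 set to 5, the median of Spearman's rho over the 44 cells was 0.007 for 887 pairs in the same complex, 0.011 for 1888 pairs in different complexes and -0.006 for pairs of all rows held in at least 6 cells. The median was 0.07 for 45 pairs within complex IV and 0.06 for the 6 pairs within complex II. Between complexes, the cell means of complexes V and I had a rho of 0.36, and the other 9 pairs lay between -0.11 and 0.22. These values describe 44 cells that share linked libraries and a forced distribution, and no p-value was computed.

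Taken as lists, other mitochondrial genes had smaller shares of values at 5 or more than the subunits (45.3%). Single genes among them were widely held. None of 13 assembly factors of complex I, 4 of complex II, 6 of complex III and 22 of complex IV reached a log2 value of 5 in at least 22 cells, and 5.77%, 5.11%, 12.1% and 12.2% of their values did so. Over all rows of the table, 5.23% reached 5 in at least 22 cells, and 12.1% of values reached 5. In lists this short, counts of 0 are near that share of rows and are not read as a trait of assembly factors. The highest medians among these were 4.43 for Uqcc2, an assembly factor of complex III, and 4.26 for Higd2a, one of complex IV. Of 6 further genes of complex V, 3 were widely held: Atpif1, which inhibits the reversed enzyme, with a median of 5.50, and Usmg5 and 2010107E04Rik, small membrane subunits outside the symbol rule, with medians of 6.67 and 8.11.

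Some of the carriers that supply ATP synthase were widely held. Of 13 measured genes of electron transfer and adenine nucleotide exchange, 3 reached a log2 value of 5 in at least 22 cells, and 36.5% of values reached 5. Slc25a4, which exchanges ADP for ATP, had a median of 7.54, Slc25a3, the phosphate carrier, one of 7.03, and Vdac3, a channel of the outer membrane, one of 5.45. Cycs, which encodes cytochrome c, had a median of 0.96. Of 21 genes of mitochondrial import, Tomm6 and Chchd2 were as widely held, with medians of 5.23 and 8.18.

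Enzymes of the citric acid cycle and glycolysis gave a second yardstick. None of 14 citric acid cycle genes reached a log2 value of 5 in at least 22 cells. In so short a list this is near the 5.23% of all rows. Of the values of these 14 genes, 23.2% reached 5, against 12.1% over all rows. Their highest median was 4.16 for Mdh2, mitochondrial malate dehydrogenase. Of 18 glycolytic genes, 6 were so widely held, with 34.1% of values at 5 and medians of 9.48 for Gapdh and 8.58 for Aldoa. Of 11 regulators of mitochondrial biogenesis, 0 reached 5 in at least 22 cells, again near the share of all rows. Of the regulators' values 4.75% reached 5, against 12.1% over all rows. The highest median was 0.37 for Gabpa, whose exons overlap those of Atp5j, while Nrf1 had a median of 0.11 and Yy1 was listed at a median of 0. A listed 0 does not show that a transcript was absent, since subunits such as Sdhb and Uqcrq were also listed at 0 in some cells. Ucp3, an uncoupling protein of skeletal muscle, was listed at 0 or at most 0.0013, and Cidea, a marker of brown fat, at 0 or at most 0.0009 FPKM.

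**Figure D5:**
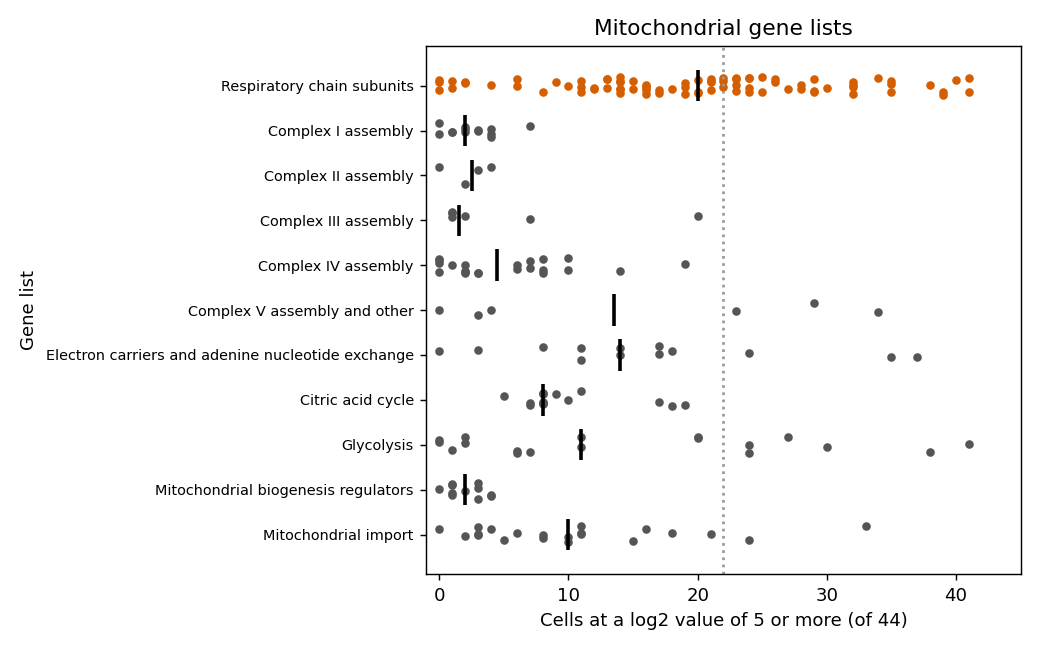
Number of cells, of 44, in which each gene reached a log2 value of 5 (points), for the 83 respiratory chain subunits (top row) and 10 lists of related genes, with the median of each list (vertical bar) and a dotted line at 22 cells. Of the subunits 36 lie at or right of the line, of glycolysis 6, of complex V assembly and other genes 3, and of the citric acid cycle 0.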

How the data were processed

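The authors deposited 1 table of log2 values named FPKM, with 12745 rows and 44 cells. TopHat2 and Cufflinks on build GRCm38 are listed, per the submitters' processing notes, without versions. The logarithm was taken as base 2 with 1 added, from the size of the sums, which were then between 579623 and 579912 FPKM per cell. With base e the lowest sum was 1.58e+07. That the sums are nearly equal follows from the forced distribution and does not fix the base. The base is inferred, the forced distribution is read from the deposited values, and neither is given in the sources used here.

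Libraries were linked where Spearman's correlation over alternate rows passed 0.542, a limit from Otsu's method, and the carried signal was measured on the remaining rows. Shares have exact Clopper-Pearson 95% intervals, which cover counting error only. The depth of each library is unknown. Lengths and overlaps come from GENCODE, promoters from RefSeq. Steps were tested on simulated data. Python 3.11.15, numpy 2.4.6, pandas 2.3.3, scipy 1.17.1, networkx 3.6.1 and matplotlib 3.10.9 were used.

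The genes, lists and thresholds were chosen with earlier results of these data known. Per complex, the text names the 3 highest and 3 lowest genes by median, all of complex II, isoform pairs, the 5 widest interquartile ranges among genes with a median of 5 or more, and core subunits. Of these genes, 1 is not reported here by name or drawn by cell. Other genes are named as members of a list or group. The alternatives were other thresholds, scales, summaries, gene sets, windows and cells left out. All values come from 1 group, and no test was made.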

Additional observations from a re-analysis of the deposited data

How the results depend on the processing

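Of 140 alternative values, 114 stayed within the spread over cells or within 1.5 times the count. Many of these left out only 1 block of cells, and alternative thresholds entered for both counts. The limit is wide: complex V minus complex III counted as staying at 1.16 with the median over genes, against 0.39. The share is therefore no measure of how firm the results are. The count of subunits in at least 22 cells at a log2 value of 5, 36, became 75 above 0 and 63 at FPKM 5. With the log2 of the mean FPKM, the levels became 7.89 for complex V, 7.35 for IV, 7.65 for III, 5.83 for II and 7.20 for I. Without genes under 5 in more than 22 cells they were 6.46 for V, 6.86 for IV, 6.33 for III and 5.75 for I. With the median over genes complex IV was 3.19 and complex I 3.83, and with a pseudocount of 0.1 they were 2.66 and 3.95. With Ndufa4 counted in complex IV, complex IV was 4.11 and complex I 4.37. Without Atp5s and Atp5sl complex V was 6.25, and without its 6 restricted isoforms complex IV was 6.16, an alternative chosen after seeing the data. Complex V minus complex I was 2.16 with the median over genes. Complex V minus complex IV was 0.50 with mean FPKM and 2.49 with the median, and turned to -0.43 without low genes and to -0.053 without restricted isoforms, Atp5s and Atp5sl. Cells with a restricted complex IV isoform, 4 at a log2 value of 5, were 18 at 1 and 8 over 5 times the linked signal. The YY1 letters stood in 1 gene before the start. The SD over cells of the mean of all subunits, 0.363, became 0.828 for the median. Leaving out each block of linked cells in turn, the counts ran from 74 to 75 and from 33 to 38, and the difference of complexes V and I from 1.10 to 1.25. Rows per symbol could not be varied, since no symbol was repeated, and complex II had 0 transcripts under 1000 bases. The cause of these changes was not tested, beyond the genes each alternative leaves out. Depth is unknown, and values between 1 and 5 were mostly within the signal of linked libraries. No paired analysis was possible because all cells belong to 1 group.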

Other observations

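Extremes of the complexes fell in different cells, except that complexes IV and I were both highest in cell 36. The highest cell mean was 7.03 for complex V in cell 28, 5.60 for complex IV in cell 36, 7.38 for complex III in cell 31, 7.10 for complex II in cell 44 and 5.24 for complex I in cell 36, all as log2 values. The lowest was 4.19 for complex V in cell 13, 2.55 for complex IV in cell 43, 2.64 for complex III in cell 39, 1.80 for complex II in cell 5 and 2.82 for complex I in cell 21. The highest value of any subunit was 12.19, for Ndufb2, an accessory subunit of complex I, in cell 36. Exons of Ndufb2 overlap 3 other annotated genes, among them Braf, and reads of the overlap cannot be told apart.

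Among pairs of subunits, Ndufa4 and Ndufb10 had the highest Spearman rho over cells, 0.53, and Sdha and Uqcrc2 the lowest, -0.50, with values under 5 set to 5. These are the ends of a distribution over 887 pairs within and 1888 pairs between complexes, chosen for their values, and carry no test.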
